A study of Mus musculus with 6 samples.

Results

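The genes described here are 32 mouse genes of the glutathione and NRF2 antioxidant system. They comprise 20 glutathione transferases and 12 genes of glutathione synthesis, peroxide and quinone reduction and their control. Members were found as probes whose RefSeq accession maps to 1 of the listed genes. Of the 32 genes, 31 had a probe and all 31 were tested, among 14171 genes tested on the arrays. Gsta1 had no probe matched by accession and has no value here.

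Glutathione transferases join the tripeptide glutathione to reactive electrophiles and drug metabolites, which makes these compounds soluble and exportable, and the hepatocyte is one of the cell types richest in them. The transcription factor NRF2, encoded by Nfe2l2, is held by KEAP1 and degraded in unstressed cells. When electrophiles modify KEAP1, NRF2 accumulates and with small MAF proteins binds the antioxidant response element in front of genes for glutathione synthesis, quinone reduction, thioredoxin and many transferases.

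Livers came from male mice with a liver-specific knockout of Elovl6, labelled LKO (n = 3), and from male controls titled Flox (n = 3), with 1 mouse per array. Elovl6 elongates palmitate to stearate. Every mouse, controls included, had 14 days of a high-sucrose diet and a 4 hour fast before the liver was frozen. The Cre driver, strain and age are not given in the sources used here.

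All 6 one-colour Agilent arrays lay on 1 slide, between 52.1% and 56.6% of spots were well above background on each, and saturation affected no spot. Precision is limited by there being 6 arrays. Levels are given as scaled signal, the processed signal divided by the array's 75th percentile and multiplied by the mean of the 6 percentiles. Scaled signals of different genes come from different probes and cannot be ranked against each other. Elovl6 had scaled signals of 5999, 12090 and 6415 for control livers, against 64.2, 94.1 and 102 for LKO livers, so each mouse matched its label. All 10 hepatocyte markers were measured, with summed scaled signals of 1695270 to 1761170 in the controls and 1801730 to 1887750 in LKO. Of these markers 8 had higher values and 2 lower, with a median log2 change of 0.09. The highest was Fgb, at 0.37 ± 0.14 (SE), which is also on the list of acute phase genes below. In whole liver, fewer cells of a type and less RNA per cell cannot be told apart.

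The transferases did not shift together in LKO livers. Both pi class members had higher values, and all mu and theta class members had lower values. Every tested member of the alpha, omega, zeta, kappa and membrane classes had a 95% interval that included 0. So did Gstm1, Gstm3, Gstm4 and Gstm7 of the mu class. None of these differences passed an adjusted p of 0.05 in the fit across all genes. With limma and Benjamini-Hochberg adjustment 0 of the 31 members passed, against 2 genes (0.0141%) of all genes tested, and the smallest adjusted p of a member was 0.214, for Gstm2. At an unadjusted p under 0.05 there were 9 members, 3 higher and 6 lower, or 29% of the members against 11.2% of all genes tested. By direction, the background was 5.56% of genes higher and 5.6% lower. The groups did not overlap for 11 members, 4 higher and 7 lower, against 17.3% of all genes tested (8.11% higher and 9.21% lower). Values were lower in LKO for 22 of the 31 members, with a median log2 change of -0.09, while all genes had a median of 0.00 and 50.8% of them had higher values. This tally rests partly on control 1 and control 2. Without control 1, 14 members had higher values and the median was -0.03, and without control 2, 6 had higher values and the median was -0.14.

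**Figure D1:**
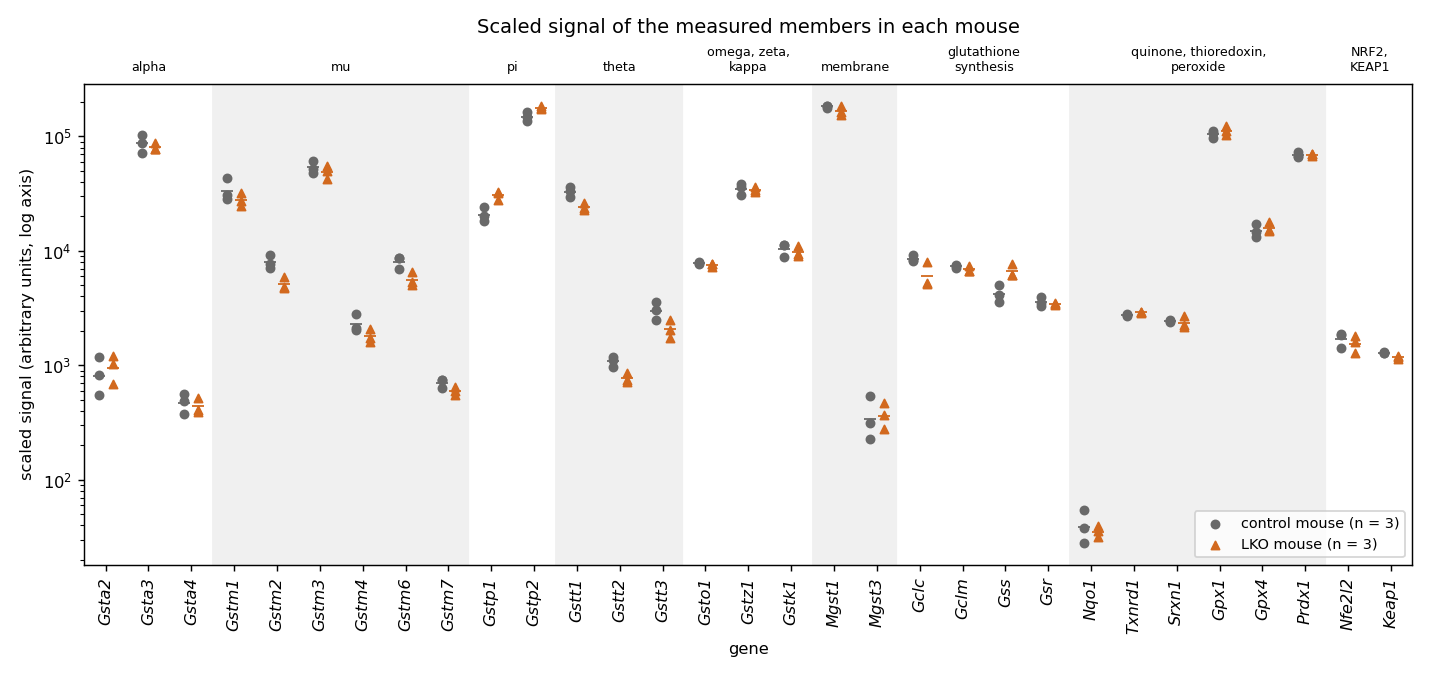
Scaled signal on a log axis (arbitrary units) of the 31 measured genes, grouped by class, in 3 control mice (circles) and 3 LKO mice (triangles), with a bar at the geometric mean of each group. The groups separate for Gstm2, Gstm6, Gstt1, Gstt2, Gstp1, Gstp2, Gss and Gclc, by small amounts for Txnrd1, Gsto1 and Keap1, and overlap for the other genes. Heights of different genes cannot be compared, because they are read by different probes.

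The pi class transferases, which conjugate small electrophiles and are abundant in the liver of male mice, had higher values in both members. Gstp1 had scaled signals of 18261, 24414 and 20025 for control livers, against 31757, 32570 and 28084 for LKO livers. Every LKO mouse lay above every control mouse. The log2 change was 0.57 ± 0.13 (SE, n = 3 per group, limma adjusted p = 0.237), or 1.48-fold. Gstp2 had scaled signals of 136357, 163093 and 147787 for control livers, against 177931, 185613 and 173500 for LKO livers. Its groups did not overlap either, and its log2 change was 0.27 ± 0.10 (SE, limma adjusted p = 0.388), or 1.20-fold. These 2 genes are near-identical neighbours, so how far each probe reads the other copy is uncertain, and their agreement is not 2 independent measurements.

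The mu class, the group that handles many epoxides and planar electrophiles, had lower values in all 6 members, with a median log2 change of -0.31, or -0.21 without control 1. Gstm2 had scaled signals of 9200, 7097 and 7734 for control livers, against 5878, 4800 and 4756 for LKO livers. No LKO mouse reached the lowest control. Its log2 change was -0.64 ± 0.14 (SE), or 1.56-fold lower, with a 95% interval from -0.96 to -0.31. Gstm6 gave 8651, 6972 and 8594 for control livers, against 6554, 5302 and 5071 for LKO livers, again without overlap, and a log2 change of -0.52 ± 0.14 (SE, limma adjusted p = 0.278). The second probe of Gstm6 gave -0.43 ± 0.14. Gstm4 gave 2806, 2023 and 2120 in the controls against 2092, 1614 and 1739 in LKO, and LKO 1 lay among the controls. Gstm7 gave 738, 636 and 746 in the controls against 645, 593 and 549 in LKO, where LKO 1 was above control 2. The log2 changes of Gstm4 and Gstm7 were -0.35 ± 0.16 and -0.25 ± 0.11 (SE). Gstm1 and Gstm3, with log2 changes of -0.27 ± 0.18 and -0.13 ± 0.14 (SE), had overlapping groups. Mu class copies are close in sequence, so probes of this class may share signal.

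The theta class, which acts on small halogenated compounds and lipid peroxidation products, was lower in all 3 members. Gstt1 had scaled signals of 36316, 29800 and 33069 for control livers, against 26290, 22965 and 23696 for LKO livers, without overlap. Gstt2 had 1105, 1181 and 967 for control livers, against 750, 714 and 856 for LKO livers, also without overlap. Their log2 changes were -0.44 ± 0.11 and -0.49 ± 0.11 (SE, limma adjusted p = 0.252 and 0.249), or 1.36-fold and 1.40-fold lower. Gstt3 had 3601, 2496 and 3039 for control livers, against 2507, 1730 and 2035 for LKO livers. LKO 1 was just above control 2 for this gene, and the log2 change was -0.54 ± 0.18 (SE, limma adjusted p = 0.365).

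The size of the difference in the mu and theta classes depended on which LKO mice were used. In the array headers, the barcode number after the slide was shared by the controls and LKO 1, with another for LKO 2 and LKO 3. It is called the slide column here, but the number does not say whether it is a row or a column. With the column as a covariate, which sets LKO 1 alone against the controls, the median log2 change was -0.13 for the mu class, -0.33 for the theta class and 0.44 for the pi class. That fit rests on 1 LKO mouse, so members at an unadjusted p under 0.05 are not counted for it. In that fit Gstm6 was at -0.29, Gstt3 at -0.26, Gstm4 at -0.13 and Gstm7 at -0.13. Gstm2 was at -0.44 there, and Gstt2 at -0.53 and Gstp1 at 0.61 were close to their values with all mice. Slide column and the difference between LKO 1 and the other LKO mice cannot be told apart.

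The other transferases, like Gstm1, Gstm3, Gstm4 and Gstm7 of the mu class, had 95% intervals that included 0. Gsto1, an omega class enzyme that reduces disulphides and dehydroascorbate, was read at 7716, 7865 and 8067 for control livers, against 7696, 7182 and 7623 for LKO livers. Its groups just failed to overlap, with a log2 change of only -0.07 ± 0.08 (SE). Gstz1 of tyrosine breakdown and Gstk1 of mitochondria and peroxisomes were at -0.03 ± 0.11 and -0.09 ± 0.14. In the alpha class, which also reduces lipid hydroperoxides, Gsta3 was at -0.11 ± 0.15, Gsta4, the enzyme for the lipid aldehyde hydroxynonenal, at -0.09 ± 0.18, and Gsta2 at 0.22 ± 0.31. Gsta2 was spread from 553 to 1172 among the controls and from 688 to 1200 among LKO mice, so its interval, from -0.52 to 0.97, leaves changes of either sign possible. Gsta2 has a near-identical copy in Gsta1, so its probe may read both. The membrane enzymes Mgst1 and Mgst3 were at -0.12 ± 0.09 and 0.10 ± 0.33 on the log2 scale.

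**Figure D2:**
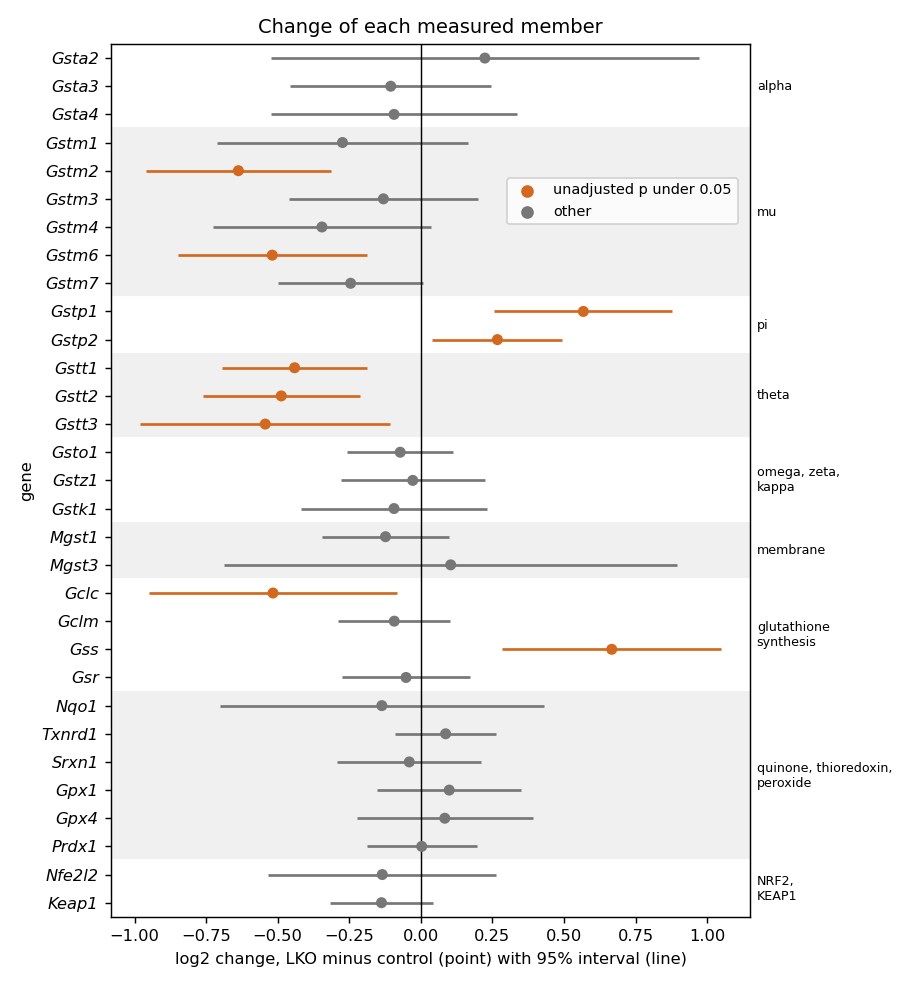
Log2 change between LKO and control (points) with the 95% interval of the limma fit (lines) for the 31 measured genes in class order, n = 3 mice per group. The 9 genes with an unadjusted p under 0.05 are coloured: Gstp1, Gstp2 and Gss to the right of 0 and Gstm2, Gstm6, Gstt1, Gstt2, Gstt3 and Gclc to the left. None has an adjusted p under 0.05.

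The mu, theta and pi transferase genes of the mouse sit in runs of neighbours, while the alpha class genes listed here lie on more than one chromosome and are not one run. In the gene order of the RefSeq table (assembly GRCm38.p6), the mu run holds 7 genes, the 6 described above and Gstm5, and all 7 had lower values, with Gstm5 at -0.19 ± 0.12 (SE). Among the 3 protein-coding genes on each side of it, 4 were tested, of which Ahcyl1 and Ampd2 were at -0.09 ± 0.08 and -0.07 ± 0.13, Csf1 at 0.30 ± 0.28 and Gnat2 at 0.77 ± 0.19. The theta run holds Gstt3, Gstt1, Gstt4 and Gstt2, where Gstt4 was not above background on any array and the other 3 were lower. All 6 of its neighbours were tested, 3 lower and 3 higher. Ddt and Mif, which encode related tautomerases, were at -0.19 ± 0.09 and -0.15 ± 0.10, Smarcb1 at -0.03 ± 0.11, Cabin1 at 0.05 ± 0.10 and Susd2 at 0.11 ± 0.10. Derl3, an endoplasmic reticulum degradation factor, was at 2.40 ± 0.42 (limma adjusted p = 0.162). The pi run had values of both signs. Gstp3, next to Gstp1 and Gstp2, had scaled signals of 415, 437 and 446 for control livers, against 389, 390 and 386 for LKO livers, a log2 change of -0.16 ± 0.08, opposite in sign to Gstp1 and Gstp2. The difference between Gstp3 and its neighbours was not tested. Of its 6 neighbours, Nudt8 was at 0.20 ± 0.12, Doc2g at -0.24 ± 0.18, Ndufv1 at -0.08 ± 0.07, Cdk2ap2 at -0.05 ± 0.14 and Pitpnm1 at 0.28 ± 0.21. Cabp2 was well above background on 1 of 3 LKO arrays and was tested through the controls, so no size is given for it.

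**Figure D3:**
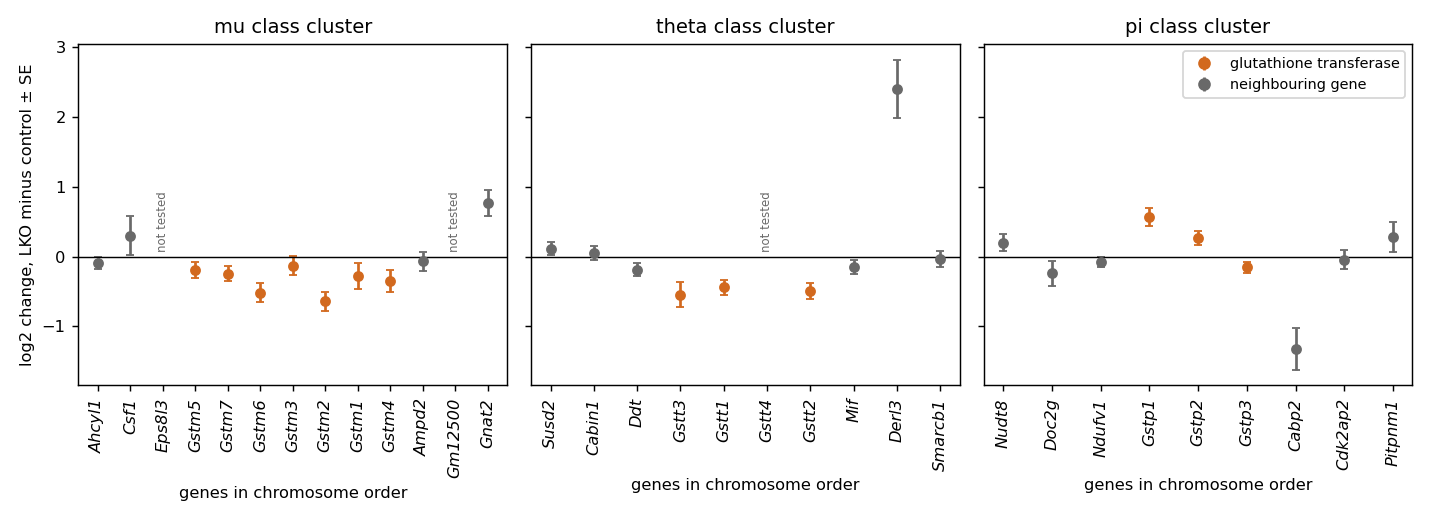
Log2 change between LKO and control (points, bars are SE, n = 3 mice per group) of the genes in the mu, theta and pi transferase clusters and of 3 protein-coding genes on each side, in chromosome order without distances; "not tested" marks genes below the filter or without a probe. All 7 mu genes and all 3 tested theta genes are below 0, Gstp1 and Gstp2 are above 0, and Derl3 and Gnat2 are the neighbours with the highest values. The point for Cabp2 rests on a probe that was well above background on 1 of 3 LKO arrays and is not a measured size.

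The enzymes of glutathione synthesis had values in opposite directions. Gclc, the catalytic subunit of glutamate-cysteine ligase and the rate-limiting step of synthesis, had scaled signals of 8271, 9238 and 8240 for control livers, against 7990, 5103 and 5275 for LKO livers. LKO 1 was near the lowest control and LKO 2 and LKO 3 were well below. The log2 change was -0.52 ± 0.18 (SE, limma adjusted p = 0.380). It was -0.72 without LKO 1 and -0.10 for LKO 1 alone in the fit with the slide column. Leaving out LKO 1, the LKO mouse nearest the controls, gave the smallest limma adjusted p of Gclc in the 16 alternatives, 0.0759. Gclm, the modifier subunit of the same ligase, was at 7140, 7431 and 7525 for control livers, against 7337, 6690 and 6704 for LKO livers, a log2 change of -0.09 ± 0.08 with a 95% interval from -0.29 to 0.10.

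Gss, glutathione synthetase, carries out the second and final step. It had scaled signals of 5082, 4089 and 3550 for control livers, against 6183, 6168 and 7737 for LKO livers, so all LKO mice exceeded all controls. The log2 change of 0.67 ± 0.16 (SE, limma adjusted p = 0.251), or 1.59-fold higher, was the largest increase among the members. A second Gss probe gave 0.59 ± 0.16 (SE). Gsr, the reductase that regenerates glutathione from its disulphide, was at 3941, 3495 and 3315 for control livers, against 3387, 3443 and 3515 for LKO livers, with a log2 change of -0.05 ± 0.09 (SE).

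Genes most often used as readouts of NRF2 had small differences with the exception of Gclc. Across 6 core targets, Gclc, Gclm, Nqo1, Txnrd1, Srxn1 and Gsr, the median log2 change was -0.07, or -0.01 without control 1. Only Gclc had an unadjusted p under 0.05, or 16.7% of the 6, against 11.2% of all genes tested. Nqo1, the quinone reductase, was close to the detection limit. It had scaled signals of 55.0, 28.2 and 37.8 for control livers, against 35.5, 39.2 and 31.6 for LKO livers, where the dimmest probes well above background lay between 13.9 and 18.5. Its log2 change of -0.14 ± 0.24 (SE) had a 95% interval from -0.70 to 0.43. Without control 1, the brightest control, it was 0.11.

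Srxn1, sulfiredoxin, which repairs over-oxidised peroxiredoxins, was at 2473, 2425 and 2407 for control livers, against 2157, 2274 and 2705 for LKO livers. The controls were nearly level and the LKO mice lay on both sides of them, with a log2 change of -0.04 ± 0.11 (SE). Txnrd1, cytosolic thioredoxin reductase, had 2712, 2762 and 2792 for control livers, against 2881, 2950 and 2946 for LKO livers. These groups did not overlap, yet the log2 change was only 0.09 ± 0.07 (SE), and a second probe gave -0.23 ± 0.10. The mean of both Txnrd1 probes was at -0.07, so the direction of Txnrd1 depends on the probe.

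No difference was detected among the peroxide enzymes. Gpx1, the cytosolic glutathione peroxidase, Gpx4, which reduces phospholipid hydroperoxides in membranes, and the peroxiredoxin gene Prdx1 had log2 changes of 0.10 ± 0.11, 0.08 ± 0.13 and 0.00 ± 0.08 (SE). The 2 further Prdx1 probes gave -0.15 ± 0.08 and -0.09 ± 0.09. The intervals of Gpx1, Gpx4 and Prdx1 reached at most 0.39 upward and -0.22 downward.

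Neither regulator had an unadjusted p under 0.05. Nfe2l2 was at 1879, 1837 and 1426 for control livers, against 1276, 1615 and 1805 for LKO livers, with overlapping groups and a log2 change of -0.13 ± 0.17 (SE). Without LKO 1 the value for Nfe2l2 was 0.01, and in the fit with slide column it was -0.42. Keap1 was at 1320, 1281 and 1271 for control livers, against 1195, 1182 and 1144 for LKO livers. All LKO values of Keap1 were below all control values, by a small amount, with a log2 change of -0.14 ± 0.08 (SE, limma adjusted p = 0.560). NRF2 activity is set mainly at the protein level, which an array does not measure.

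Promoter sequence was examined because the members are grouped by a shared regulator. Windows from 250 bases before to 50 bases after a gene's start were taken from RefSeq (GRCm38.p6), where 28 of the 32 genes had at least 1. The core of the antioxidant response element, TGACNNNGC, was searched on both strands. It occurred for 8 of these 28 genes (28.6%), against 14.0% of all 27025 genes and 12.4% of all windows. The longer form with 1 further A at its 3′ end, which contains the core, occurred for 2 of them, Gsta3 and Txnrd1, against 3.45% of all genes. The following stretches upstream of the start show the match in capitals, read 5′ to 3′ on the strand of the gene. They are given for 4 members whose log2 change lay between -0.11 and 0.09, to show what the element looks like in members with small changes. Gstm7 of the mu class is given beside them, and its log2 change of -0.25 was the lowest of the 8 genes with a match.
Txnrd1, chr10:82859099-82859137, + strand: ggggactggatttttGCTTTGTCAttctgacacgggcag
Gsta3, chr1:21240449-21240487, + strand: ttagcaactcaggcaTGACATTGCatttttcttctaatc
Prdx1, chr4:116685451-116685489, + strand: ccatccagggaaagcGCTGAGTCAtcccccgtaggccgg
Gclm, chr3:122245408-122245446, + strand: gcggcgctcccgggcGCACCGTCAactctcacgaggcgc
Gstm7, chr3:107931720-107931758, − strand: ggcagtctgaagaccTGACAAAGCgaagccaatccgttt

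The match lies on the antisense strand for Txnrd1, Prdx1 and Gclm and on the sense strand for Gsta3 and Gstm7. The 8 genes with a match, which also include Mgst1, Srxn1 and Nfe2l2, had log2 changes between -0.25 and 0.09, and 0 of them had an unadjusted p under 0.05, where 11.2% of all genes tested did. Of the 9 members with an unadjusted p under 0.05, Gclc and Gstt2 had no window and were not searched. None of the other 7 held the core, which 14.0% of all genes hold. With so few genes, neither count stands apart from these shares. A match describes letters in a short window and is not a measured site, and elements farther from the start were not searched.

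Among other genes of the pathway, lower values were seen for those that supply NADPH, the electron source for glutathione and thioredoxin reductases. Of 8 tested NADPH genes, 5 had lower values at an unadjusted p under 0.05, or 62.5%, against 5.6% of all genes tested. At that level 0 NADPH genes had higher values, and 0 passed the adjusted threshold. Pgd, of the pentose phosphate pathway, was at 2204, 3070 and 2601 for control livers, against 1274, 1078 and 1187 for LKO livers, a log2 change of -1.14 ± 0.14 (SE, limma adjusted p = 0.100). Me1, malic enzyme, was at 9776, 18393 and 14602 for control livers, against 5952, 2678 and 4422 for LKO livers, a log2 change of -1.74 ± 0.34 (SE). Tkt, transketolase, was at 9749, 10793 and 9255 for control livers, against 7300, 6168 and 7237 for LKO livers, a log2 change of -0.53 ± 0.11 (SE). For all 3 genes no LKO mouse reached the lowest control. Several of these genes are also regulated with fatty acid synthesis.

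Further NRF2 targets outside the members had a median log2 change of 0.05 over 27 tested genes. It was 0.07 without control 1 and -0.00 without control 2. At an unadjusted p under 0.05, 2 were higher and 1 lower, or 11.1%, near the 11.2% of all genes tested. The 2 higher ones were the metallothionein genes Mt1 and Mt2, metal-binding proteins that also respond to zinc and inflammation. Mt1 was at 2291, 2378 and 3779 for control livers, against 3758, 21905 and 25339 for LKO livers, so that LKO 1 lay within the control range and LKO 2 and LKO 3 far above it. Mt2 showed the same split, with 959 in LKO 1 against 8730 and 10462 in the other LKO mice. The lower gene was Aldh1a7, an aldehyde dehydrogenase, with a log2 change of -0.50 ± 0.14 (SE, limma adjusted p = 0.296).

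Other thiol and peroxide enzymes, 26 tested, had a median log2 change of -0.06 (-0.02 without control 1 and -0.04 without LKO 1), with 0 higher and 2 lower at an unadjusted p under 0.05. The 2 were the sestrin gene Sesn1, at -0.35 ± 0.08 (SE), and the glutaredoxin gene Glrx, at -0.26 ± 0.10, followed by Txnrd3 at -0.31 ± 0.14. For cysteine supply and glutathione breakdown, 16 genes were tested with a median of 0.17, which was 0.07 without control 2, 0.10 without control 3 and 0.11 without LKO 1. There 1 was higher, Chac1, a glutathione-degrading enzyme of the amino acid stress response, at 0.47 ± 0.19 (SE), and 1 was lower, the dipeptidase Dpep1. The Dpep1 probe was well above background on 1 of 3 LKO arrays and was tested through the controls, so no size is given for it. Cbs, which channels homocysteine toward cysteine, was at 0.27 ± 0.12. Among 15 NRF2 regulators and xenobiotic receptors, the median was 0.14, with 0.05 without control 3, 0.07 without LKO 2 and 0.08 without LKO 3. Rxra and Nr1i2, which encode the partner receptor RXR alpha and the drug sensor PXR, were higher at an unadjusted p under 0.05, by 0.28 ± 0.09 and 0.29 ± 0.12. Bach1, a repressor at antioxidant response elements, was at 0.36 ± 0.22. Among transferases outside the members, 3 of 10 were tested, with Gstp3, Gstm5 and Ltc4s, the leukotriene C4 synthase gene, at -0.16, -0.19 and -0.04. No gene of the lists in this paragraph had an adjusted p under 0.05. The shares at an unadjusted p under 0.05 were 7.69% for thiol and peroxide enzymes, 12.5% for cysteine supply and 13.3% for regulators. For all genes tested the share was 11.2%.

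Acute phase genes, which the liver induces in inflammation, had higher values in the same LKO mice. All 22 tested had higher values, where 50.8% of all genes tested did, with a median log2 change of 0.78. At an unadjusted p under 0.05, 18 of them were higher, or 81.8%, against 5.56% of all genes tested. After adjustment 0 of them passed, and in the fit with slide column the median was 0.39. The mice differed in this, with a mean deviation from the control mean of 0.66 in LKO 1, 1.21 in LKO 2 and 1.68 in LKO 3, and from -0.25 to 0.21 in the controls. The examples with the smallest p were Saa2, Saa1 and Itih3, at 3.48 ± 0.38, 3.28 ± 0.40 and 0.90 ± 0.14 (SE). The same measure was -0.17, -0.48 and -0.43 for the mu class, -0.37, -0.64 and -0.46 for the theta class, and 0.44, 0.49 and 0.33 for the pi class in LKO 1, LKO 2 and LKO 3. The mu class of LKO 1 lay within the control range, which ran from -0.18 to 0.21. For core NRF2 targets it was -0.07, -0.15 and -0.15. The part of the acute phase genes in the transferase differences was not tested.

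Markers of other liver cells were measured beside these genes, and 0 of them passed the adjusted threshold. Of 10 neutrophil markers 6 were tested, and Mpo, Ngp and Cxcr2 were above background on no array. At an unadjusted p under 0.05, 3 were higher, or 50% of those tested against 5.56% of all genes tested. These were S100a8, S100a9 and Retnlg, with log2 changes of 2.43, 2.21 and 1.23 and groups that did not overlap. The summed neutrophil marker signal, most of it from Csf3r, was 19288 to 22379 in the controls and 20847 to 24342 in LKO. Camp, Csf3r and Elane had log2 changes of 0.18, -0.04 and -0.19. Of 15 macrophage markers, all tested, 14 had higher values and 1 lower, with a median log2 change of 0.22. Of all genes tested, 50.8% had higher values. The 2 macrophage markers higher at an unadjusted p under 0.05 were Marco at 1.25 and Lyz2 at 0.46, whose groups did not overlap. That is a share of 13.3%, against 11.2% of all genes tested. The summed macrophage marker signal was 30336 to 40468 in the controls and 36434 to 43364 in LKO. The part of these cells in the transferase values was not tested.

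**Figure D4:**
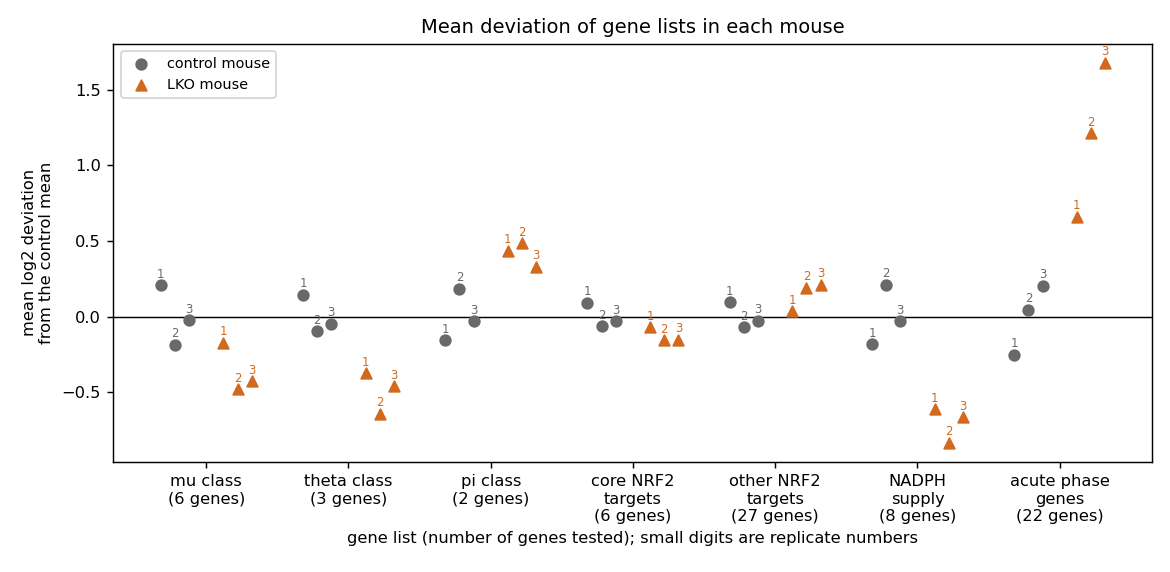
Mean log2 deviation from the control mean, per mouse, for the mu, theta and pi transferase classes, core and other NRF2 targets, NADPH supply genes and acute phase genes (circles are 3 control mice, triangles 3 LKO mice, digits are replicate numbers). The theta class and NADPH genes lie below and the pi class above the controls in every LKO mouse, the mu class of LKO 1 overlaps the controls, and the acute phase genes are highest in LKO 3 at 1.68.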

How the data were processed

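Liver RNA of 3 control and 3 LKO mice was measured on one-colour Agilent arrays from 0.1 µg of total RNA per array. Agilent Feature Extraction 11.5.1.1 made the files, per the submitters' processing notes. The deposited processed signal intensities were background-corrected by that software, per the file headers, while the median signals deposited beside them are uncorrected intensities. Deposited spot flags, other values set by Feature Extraction, mark detection above background, saturation and outliers. The authors' value table is proportional to these intensities, by a factor between 2.08 and 2.48 that differs by array and whose basis is unknown. It is linear and uncentred, and the medians of its columns are 55.3, 62.9 and 61.5 (control) and 63.7, 59.1 and 62.2 (LKO).

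Probes were named by matching accessions without versions to a RefSeq table (GRCm38.p6). Of 56605 probes, 32994 had 1 symbol, 0 several and 23611 none. The headers name the array design's build as mm9. Coordinates of promoters are those of the RefSeq promoter table.

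Outlier spots (64 to 111 per array) were left out. Processed signals were put on the log2 scale and the 75th percentile of each array was subtracted. A gene was its probe with the highest mean, tested if either group had it well above background on 3 of 3 arrays, which kept 14171 of 22911 genes. LKO and control were compared by a linear model in limma 3.58.1 (lmFit, then eBayes; R 4.3.3), two-sided, without a block, and p-values were adjusted by Benjamini-Hochberg over the 14171 genes. The fit was tested on simulated data. Nothing in the labels says more than that samples are separate mice, so p-values measure the spread between these mice. Among 31 members, 9 had several probes, and for 3 (Gstz1, Prdx1 and Txnrd1) the probes differed in direction.

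Members and lists were chosen with earlier results of these data known, so no list was tested and none is independent support. Values in every mouse are given for the 12 members with the smallest p, members whose groups do not overlap and 8 core genes, 19 in all, and of each pathway list up to 3 genes with the smallest p are named. Nfe2l2 and Keap1 are among the 8. Other named genes (Gstp3 values, neighbours of clusters, Bach1) were chosen by position or after their values were seen. There were 9 pathway lists and 11 marker lists. Alternatives were 2 other normalizations, normexp on the median signals with an offset of 50, the authors' table, 2 other filters, the mean of probes, trended robust eBayes, the replicate number as a block, the slide column and leaving out each mouse.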

Additional observations from a re-analysis of the deposited data

How the results depend on the processing

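No member passed the adjusted threshold in any of the 16 alternatives, and the median log2 change of the members stayed between -0.14 and -0.03. The members described with a value in every mouse, 19 in all, kept their direction in 14 cases. Gsr, Txnrd1, Nqo1, Srxn1 and Nfe2l2, all near 0, changed sign in at least 1 alternative. Of members at an unadjusted p under 0.05, the slide column left 1 higher and 2 lower, a fit in which only LKO 1 is set against the controls.

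Over all genes, 2 passed the threshold, with 16 under normexp and 13 with trended robust eBayes. There was 1 without a filter on dim probes and 1 with genes well above background on all 6 arrays. When each mouse was left out, 1 to 9 passed (9 without LKO 1). The cause was not tested. With the slide column, the median was -0.33 for the theta class, -0.26 for NRF2 and its repressor and 0.025 for NRF2 regulators. The median of other transferases was -0.20 with median scaling and -0.055 without a filter, and -0.157 to -0.092 when each mouse was left out, and that of female-biased genes was -0.12 without a filter. The labels state no pairing of mice with the same number. The correlation of deviations between such mice was 0.04, -0.05 and -0.07. With 3 mice per group these values cannot show whether mice are paired. The replicate block gave 3 genes past the threshold and 0 members.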

Other observations

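Genes with sex-dependent expression were measured because pi class transferases are male-biased in mouse liver. Of 11 tested male-biased genes, 3 were higher at an unadjusted p under 0.05 and 0 lower, with a median log2 change of 0.05. The 3 are 27.3% of those tested, where 11.2% of all genes had such a p. Cyp7b1, the oxysterol hydroxylase, was at 10243, 9230 and 6434 for control livers, against 17160, 24227 and 15430 for LKO livers, a log2 change of 1.13 ± 0.23 (SE, limma adjusted p = 0.199). C6 of the complement system was at 0.36 ± 0.11 and Selenbp2 at 0.72 ± 0.26. Other male-biased genes were lower or near 0, such as Elovl3 at -0.56 ± 0.32 and Cyp4a12b at -0.47 ± 0.22, so the list did not move one way. Of 14 female-biased genes 6 were tested, with a median of 0.00, and Acot3 was lower at -0.64 ± 0.16. Only Acot3 had an unadjusted p under 0.05, or 16.7% of those tested against 11.2% of all genes. Another 6 female-biased genes were above background on no array.

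Zonal markers of the hepatocyte were measured too. Over all genes tested, 5.56% were higher and 5.6% lower at an unadjusted p under 0.05. Of 10 pericentral markers 2 were lower at an unadjusted p under 0.05 (median log2 change 0.06), while of 10 periportal markers 3 were higher, with a median of 0.21. Of 7 lymphocyte and plasma cell markers tested, 2 were lower, of 10 endothelial markers 0 passed in either direction, of 10 stellate markers 1 was higher and 1 lower, of 6 bile duct markers 1 was lower, of 4 erythroid markers 1 was higher, and of 4 pancreatic and adipose markers 0 passed, all at an unadjusted p under 0.05 in the limma fit.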
